A study of Mus musculus with 60 samples.

Results

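The Pax family is the set of 9 paired-box transcription factors of the mouse, Pax1 to Pax9, and its members were taken by symbol from the table of RNA levels. All 9 were among the 24508 gene symbols of that table. The family was chosen by the RPKM levels of its members in R6/1 and WT in these same libraries, so its RNA levels are described here, and where a fit over all genes includes a member nothing is drawn from its call. The study set R6/1 mice against wild-type (WT) mice, both 30 weeks old, and took the hippocampus. R6/1 is a transgenic line that models Huntington's disease. All animals came from a CBA x C57BL/6 cross. R6/1 mice carry exon 1 of human huntingtin, with an expanded CAG repeat, under the human gene's own promoter. RNA-seq gave 9 WT and 9 R6/1 libraries from separate biological replicates, and the sexes of the animals are not given in the sources used here. Lamin B1 ChIP-seq was made in 3 replicates per genotype, each a pool of hippocampi from 5 mice.

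Pax proteins bind DNA through the paired domain that names them, and several also carry a whole or partial homeodomain. They act early in development, when each marks a band, organ field or progenitor pool. They are sorted by sequence into 4 subgroups: Pax1 and Pax9 (skeleton, thymus and teeth), Pax2, Pax5 and Pax8 (midbrain-hindbrain boundary, kidney, ear, thyroid and B cells), Pax3 and Pax7 (dorsal neural tube, neural crest and muscle), and Pax4 and Pax6 (pancreas, eye and forebrain). In the adult hippocampus Pax6 is known from the neural stem and progenitor cells of the dentate gyrus.

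The regions in front of the genes are shown for the 2 members with the largest levels and for Pax1, whose groups of libraries did not overlap. RefSeq (table of build GRCm38.p6) gave 10 start windows for 7 of the 9 genes. Each matched build NCBIM37 (mm9) exactly once. The 250 bases before the start are considered here. Of the 10 windows, 4 overlap an exon of the GENCODE annotation and are not shown, among them the window of Pax5. Capitals mark CG, the dinucleotide that can be methylated and that is dense in CpG islands. The first sequence ends at the RefSeq start of Pax1 on the plus strand (chr2:147190480-147190729), which lies 3069 bases inside the annotated gene. The next pair ends at the upstream starts of Pax2, also on the plus strand (chr19:44820841-44821090 and chr19:44829992-44830241). The last ends at the annotated start of Pax6 (chr2:105508803-105509052, plus strand).

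Pax1: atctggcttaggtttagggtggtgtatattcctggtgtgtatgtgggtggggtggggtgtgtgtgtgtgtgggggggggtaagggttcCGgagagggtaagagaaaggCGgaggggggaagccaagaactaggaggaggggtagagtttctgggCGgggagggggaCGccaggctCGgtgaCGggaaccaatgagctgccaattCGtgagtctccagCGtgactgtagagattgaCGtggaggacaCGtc
Pax2, outer start: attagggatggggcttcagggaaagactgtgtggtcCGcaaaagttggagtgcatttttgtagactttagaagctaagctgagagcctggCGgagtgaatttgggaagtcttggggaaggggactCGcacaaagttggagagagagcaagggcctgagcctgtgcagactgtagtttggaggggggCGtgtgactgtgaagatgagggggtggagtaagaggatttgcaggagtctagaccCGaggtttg
Pax2, inner start: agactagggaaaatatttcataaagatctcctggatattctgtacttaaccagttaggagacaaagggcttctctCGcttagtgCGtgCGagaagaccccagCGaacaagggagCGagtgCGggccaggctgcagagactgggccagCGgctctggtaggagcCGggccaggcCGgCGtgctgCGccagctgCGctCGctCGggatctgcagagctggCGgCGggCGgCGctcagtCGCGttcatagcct
Pax6: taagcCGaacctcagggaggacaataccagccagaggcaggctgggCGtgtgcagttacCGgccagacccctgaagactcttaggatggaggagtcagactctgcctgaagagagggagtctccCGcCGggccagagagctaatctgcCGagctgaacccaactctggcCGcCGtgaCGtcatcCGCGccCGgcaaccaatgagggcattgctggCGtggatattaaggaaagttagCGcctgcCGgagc

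The outer Pax2 window held 5 CG, the inner one 20, and a further window, which overlaps an annotated exon, held 25. The Pax1 window held 10, that of Pax5 19 and both Pax6 windows 15. The median over all 32851 windows of the table was 6, and 9 of the 10 Pax windows were at or above it. GGGCGG, the core of the GC box, was found on either strand in 6 of the 10 windows and in 32.7% of all windows. TATAAA was found in 0 of the 10 and in 12.4% of all windows. These are matches of letters in a fixed window.

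Levels are RPKM, reads per kilobase of transcript scaled for depth, as the authors deposited them. Between 12299460 and 16736575 reads per library fell on genes, as rebuilt from the step of the deposited values. All 10 genes of a list of hippocampal neuron markers were detected in every library. Their summed level was 2697 to 3231 RPKM in WT and 1705 to 1989 RPKM in R6/1. The list also holds genes of neurons at large, such as Snap25, so their detection alone does not establish the region. Over all genes, limma on log2(RPKM + 0.5), applied to the 14446 genes whose mean reached 0.5 RPKM, called 6980 at a Benjamini-Hochberg adjusted p under 0.05, which is 48.3%. Of all genes tested 24.8% were called higher and 23.5% lower in R6/1 (3586 and 3394 genes). After scaling by library read totals the split was 5113 higher and 2524 lower.

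**Figure D1:**
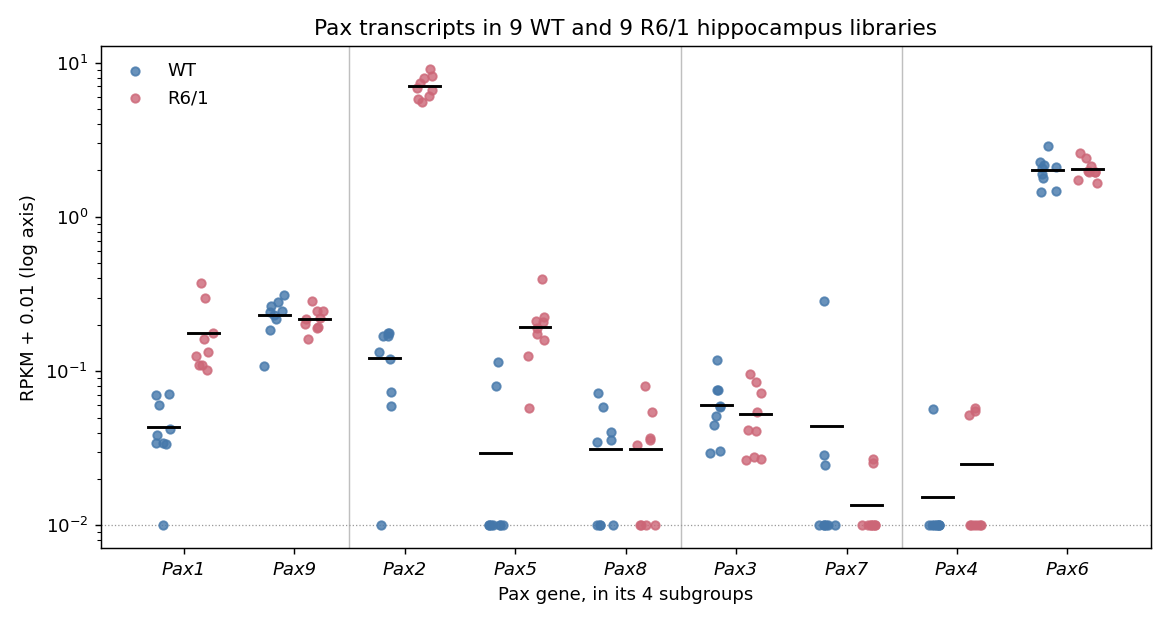
Level of each Pax gene in each library (points, RPKM + 0.01 on a log axis, so that libraries at 0 lie on the dotted line) with the mean of each genotype (bars), by subgroup. Pax2 lies between 5.55 and 9.10 RPKM in R6/1 and at or below 0.168 RPKM in WT, Pax1 does not overlap either, and Pax6 covers the same range in both genotypes.

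Pax2 was near absent in WT hippocampus and was the most abundant Pax transcript in every R6/1 library. In the 9 WT libraries its level ran from 0 over a median of 0.123 to 0.168 RPKM, with a mean of 0.111 ± 0.0609 RPKM (SD, n = 9). In the 9 R6/1 libraries it ran from 5.55 over a median of 6.83 to 9.10 RPKM, with a mean of 7.03 ± 1.19 RPKM (SD, n = 9). The lowest R6/1 library (replicate 5) was 33.1 times the highest WT library (replicate 7), and the means differed 63.3-fold. In reads, 43 were counted over all WT libraries, in 8 of the 9, and 3021 over the R6/1 libraries, between 242 and 453 in each. On the log2(RPKM + 0.5) scale the difference was 3.62 with a standard error of 0.0906, on which Pax2 ranked 1 among the 14446 genes. Pax2 passed the filter on low values only through the R6/1 libraries. The family was chosen by these same levels, so nothing is drawn from the rank. The authors' deposited table gives a log2 fold change of 4.92 for Pax2, on a scale shrunken towards 0.

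The R6/1 libraries also differed among themselves by more than counting allows for. Their coefficient of variation for Pax2 was 16.9%, whereas the reads alone would give 5.46%. R6/1 replicates 1, 4 and 6 were highest (9.10, 8.11 and 7.95 RPKM) and replicates 5 and 7 lowest (5.55 and 5.81 RPKM). In WT, with 8 reads or fewer per library, the spread of 54.9% stood beside 45.7% from counting. These are levels in whole tissue, in which fewer or more cells of a type and less or more RNA per cell cannot be told apart.

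Pax2 lies on chr19:44830539-44912758 of NCBIM37, on the plus strand. A processed transcript on the other strand, 1700039E22Rik, overlaps its far end. It had 1 read in WT and 24 reads in R6/1 (0.0108 and 0.216 RPKM), with 1 read or more in each of the 9 R6/1 libraries. The libraries were stranded, but whether strand was used in counting is not given in the sources used here, so reads of 1700039E22Rik and of Pax2 cannot be told apart. The predicted gene Gm20395 lies on the opposite strand as well.

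Pax5 and Pax8 are the nearest relatives of Pax2 by sequence. Pax5, known for holding B cells to their lineage and, with Pax2, for the midbrain-hindbrain boundary, was close to the limit of detection in WT: 0 RPKM in 7 libraries, 0.0698 and 0.105 RPKM in replicates 3 and 5, and 3 reads in all. Every R6/1 library had at least 1 read of it, from 0.0473 over a median of 0.181 to 0.384 RPKM, with a mean of 0.184 ± 0.0911 RPKM (SD, n = 9) and 31 reads in all. In R6/1, 8 of the 9 libraries were above the highest WT library, so that the groups overlapped through replicate 3 alone. Per read that fell on genes, the ratio of R6/1 to WT was 9.81, with an exact 95% interval of 3.06 to 50.2 that covers counting error only. The authors' deposited table gives a shrunken log2 fold change of 0.83 for Pax5. A gene on the same strand and Gm12462 on the opposite one overlap Pax5 (chr4:44544017-44724318, minus strand).

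Pax8, known from the thyroid and the kidney, showed no such difference. It had 7 reads in WT and 8 in R6/1, with means of 0.0213 ± 0.0234 and 0.0212 ± 0.0244 RPKM (SD, n = 9 each). In both genotypes 5 of the 9 libraries held a read. The ratio per read on genes was 1.09, with an exact 95% interval of 0.344 to 3.52 that covers counting error only. The interval of Pax5 (3.06 to 50.2) overlaps that of Pax8, so these intervals do not set the ratios of Pax5 and Pax8 apart. For Pax2 the ratio was 66.7, with an interval of 49.4 to 92.4 that lies above that of Pax8. A ratio inside the interval of Pax8 could not be told from no difference at this depth. Pax8 lies on chr2:24276071-24331119, on the minus strand.

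Pax1, which patterns the sclerotome and the thymus, was detected in every R6/1 library. Its WT level ran from 0 over a median of 0.0283 to 0.0609 RPKM, on 11 reads, with a mean of 0.0337 ± 0.0198 RPKM (SD, n = 9). Its R6/1 level ran from 0.0912 over a median of 0.123 to 0.363 RPKM, on 62 reads, with a mean of 0.167 ± 0.0954 RPKM (SD, n = 9). All 9 R6/1 libraries were above all 9 WT libraries, although the nearest were only 1.5-fold apart. The ratio per read on genes was 5.35 (exact 95% interval 2.79 to 11.3, counting error only). Replicates 2 and 5 were the highest R6/1 libraries for Pax1 (0.363 and 0.289 RPKM), and neither was among the highest for Pax2. Pax1 (chr2:147187661-147219031, plus strand) is overlapped at its start by AI646519 on the other strand, which had 1 read in WT and 0 in R6/1, where a count of 0 allows up to 3.

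Pax9, its partner in the subgroup, was higher than Pax1 in WT and did not differ between genotypes beyond the spread of the libraries. It ran from 0.0973 over 0.231 to 0.301 RPKM in WT and from 0.152 over 0.208 to 0.275 RPKM in R6/1. The means were 0.222 ± 0.0593 and 0.208 ± 0.0366 RPKM (SD, n = 9 each), on 124 and 127 reads. The coefficients of variation of Pax9, 26.7% in WT and 17.6% in R6/1, were no larger than the 26.9% and 26.6% that its reads alone would give. Slc25a21 overlaps Pax9 (chr12:57792754-57813809, plus strand) on the opposite strand.

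Pax6, a regulator of neural progenitors and of the eye, was the most abundant Pax transcript in every WT library. Its level ran from 1.44 over a median of 2.05 to 2.88 RPKM in WT and from 1.64 over a median of 1.95 to 2.59 RPKM in R6/1. The means were 1.99 ± 0.441 and 2.03 ± 0.30 RPKM (SD, n = 9 each). The log2 difference was 0.03 with a standard error of 0.0979, and the ranges overlapped almost entirely. The spread of 22.1% in WT and 14.8% in R6/1 was above the 8.57% and 8.12% from counting, with WT replicate 7 highest (2.88 RPKM) and WT replicates 3 and 1 lowest (1.44 and 1.45 RPKM). Pax6os1, an antisense transcript that starts close to the start of Pax6 (chr2:105509053-105543317, plus strand), had 0.214 ± 0.109 in WT and 0.179 ± 0.0791 in R6/1 (RPKM, SD, n = 9 each). Elp4 overlaps the far end of Pax6 on the opposite strand.

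Pax3, Pax7 and Pax4 were at the floor of the assay. Pax3 (chr1:78097842-78193709, minus strand), a neural crest and muscle factor, had 25 reads in WT and 23 in R6/1, with means of 0.0501 ± 0.0272 and 0.0424 ± 0.0261 RPKM (SD, n = 9 each). Pax4 (chr6:28392334-28399353, minus strand), a factor of pancreatic beta cells, had 1 read in WT and 3 in R6/1. Pax7 (chr4:139292977-139389445, minus strand), known from the midbrain roof and from muscle stem cells, had 19 reads in WT and 2 in R6/1, but 17 of the 19 came from WT replicate 6 (0.275 RPKM). The other 8 WT libraries ran from 0 to 0.0184 RPKM with a mean of 0.00412 ± 0.00769 RPKM, close to the R6/1 mean of 0.00361 ± 0.00717 RPKM (SD, n = 9).

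WT replicate 6 was also the highest WT library for Pax3 (0.107 RPKM against 0.0193 to 0.0657 in the others). The same library was the highest of WT for Gata3 (0.301 against 0 to 0.0621 RPKM), Barhl1 (0.225 against 0 to 0.0685 RPKM) and Tfap2b (0.266 against 0.0519 to 0.195 RPKM), transcription factors of the midbrain and brainstem named here after their values were seen. Among other genes of the lists below, also named after their values were seen, it was the highest WT library for Six3 (1.62 RPKM, WT median 0.186). The same held for Gbx2 (0.488 RPKM, WT median 0.0703) and Ret (1.55 RPKM, WT median 0.621). WT replicate 6 had no read of En1 and an En2 level of 0.372 RPKM, inside the range of the other WT libraries. Its part in the Pax3 and Pax7 values was not tested.

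Across the family, the fit over all genes included 2 members, Pax2 and Pax6, and called 1 of them (Pax2), beside the 48.3% of all genes. Pax2 entered it through its R6/1 level alone. All 9 R6/1 libraries were above all 9 WT libraries for 2 of the 9 members (Pax1 and Pax2), beside 4.06% of the 20791 genes with a value above 0, and below them for 0 members, beside 4.6%. Among genes with a mean below 0.5 RPKM, to which Pax1 belongs, 0.772% did not overlap with R6/1 higher and 0.552% with R6/1 lower. Since the members were chosen with these levels known, nothing is read from the counts. The summed level of the family was 2.49 ± 0.484 RPKM in WT (1.85 to 3.37) and 9.71 ± 1.2 RPKM in R6/1 (8.34 to 12.1; SD, n = 9 each). Pax6 made up 79.8% of the sum in WT and 21.1% in R6/1, and Pax2 made up 4.41% and 72.2%.

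The order of levels changed accordingly. In WT, Pax6 was above Pax9 without overlap, followed by Pax9, Pax2, Pax3, Pax7, Pax1, Pax8, Pax5 and Pax4, where each neighbouring pair from Pax9 down overlapped. The place of Pax7 rests on WT replicate 6, without which its mean was 0.00412 RPKM. In R6/1, Pax2 came first, with 2.14 to 4.95 times the level of Pax6 in the same library and no overlap between them. Pax6 was again clear of Pax9. Pax9, Pax5 and Pax1 then overlapped one after the other, Pax1 was above Pax3 without overlap, and Pax3, Pax8, Pax4 and Pax7 ended the order, overlapping again.

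Genes of the midbrain-hindbrain boundary, the fold between midbrain and hindbrain in which Pax2 and Pax5 act with Fgf8, Wnt1 and the engrailed factors En1 and En2, were taken as a first list. Of its 14 genes 8 were tested, 2 were called higher and 3 lower, beside 24.8% and 23.5% of all genes, and the median log2 difference was -0.10 against 0.0036 over all genes tested. The 2 called higher were the engrailed genes, both with a WT mean below 0.5 RPKM, so that they passed the filter only through their R6/1 level and are described without a p. En1 went from 0 over a median of 0 to 0.0248 RPKM in WT to 1.05 over 1.41 to 2.26 RPKM in R6/1, which is 2 reads against 568 (log2 difference 2.00, SE 0.108). En2 went from 0.347 ± 0.0966 in WT to 1.77 ± 0.166 in R6/1 (RPKM, SD, n = 9 each; log2 difference 1.43, SE 0.0777). Neither overlapped between genotypes. In R6/1, replicate 1 was the highest library for both Pax2 and En1, while the lowest was replicate 5 for Pax2 and replicate 7 for En1. En2 was highest in R6/1 replicate 6 and lowest in R6/1 replicate 8.

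**Figure D2:**
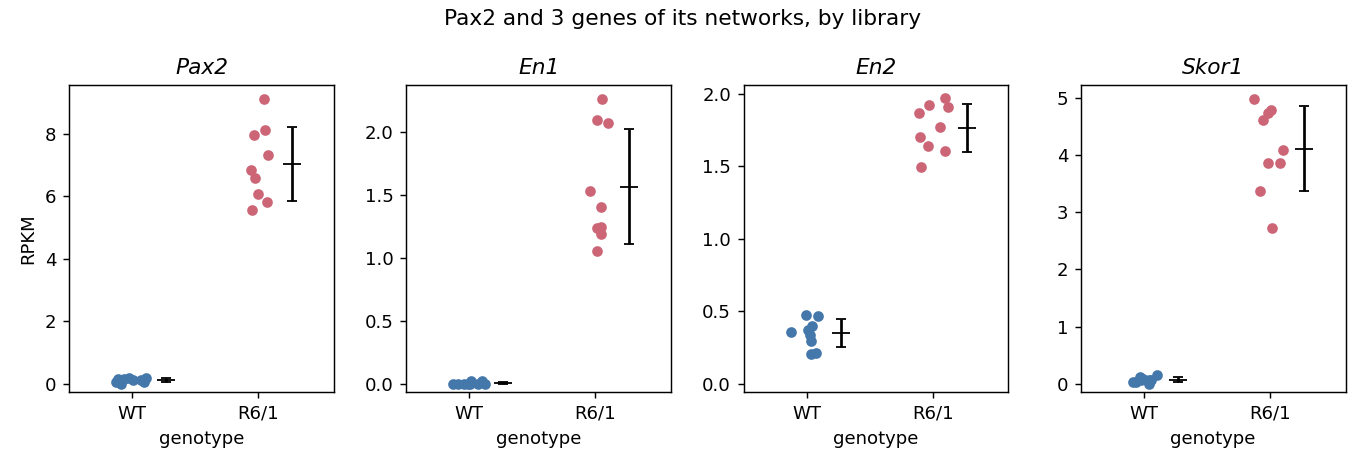
Level (RPKM, linear axes from 0) of Pax2, En1, En2 and Skor1 in each library, with mean ± SD beside the points. For all 4 genes the 9 R6/1 libraries lie above the 9 WT libraries; WT is near 0 for Pax2, En1 and Skor1, and at 0.347 RPKM on average for En2.

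Of the signals of the boundary, Fgf8, Fgf17 and Wnt1 were low in both genotypes and below the filter, as was the factor Gbx2. Fgf18, another growth factor of the list, passed the filter and was not called (WT mean 0.914, R6/1 mean 0.814 RPKM; limma adjusted p = 0.394). Fgf8, the organizer's growth factor, had 0 reads in WT and 1 in R6/1. Wnt1 had 81 and 68 reads (0.269 ± 0.102 and 0.201 ± 0.0676 RPKM), and Gbx2, the hindbrain-side factor, 39 and 58 reads (0.139 ± 0.169 and 0.188 ± 0.143 RPKM; SD, n = 9 each). Otx2, the midbrain-side factor and also a choroid plexus gene, had 1.09 ± 0.863 and 0.945 ± 0.666 RPKM (limma adjusted p = 0.829). Dusp6, an ERK phosphatase, fell by 0.69 on the log2 scale (22.8 ± 1.49 to 14 ± 2.12 RPKM, limma adjusted p = 1.43e-07). Of the Sprouty genes, which encode inhibitors of receptor tyrosine kinase signalling, Spry2 fell by 0.25 and Spry1 by 0.23, while Spry4 had 4.06 ± 0.514 and 4.72 ± 0.872 RPKM (SD, n = 9 each; limma adjusted p = 0.0816).

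Skor1, a corepressor of the SKI family, was taken with the inhibitory neuron programme in which Pax2 acts in those tissues. Its level ran from 0 to 0.145 RPKM in WT and from 2.72 to 4.98 RPKM in R6/1 (33 and 2216 reads; log2 difference 3.01, SE 0.0943). Skor1 too passed the filter only through its R6/1 level and is given without a p. R6/1 replicate 5 was lowest and replicate 1 highest for Skor1, as for Pax2. Of the 14 genes of that list 4 were tested, with 1 called higher (Skor1), 2 called lower (24.8% and 23.5% of all genes) and a median log2 difference of -0.09. The 2 that fell, Gad2 and Gad1, make the transmitter GABA, by 0.29 and 0.21 on the log2 scale. Slc32a1, the vesicular transporter of GABA and glycine, had 24.4 ± 2.01 and 25.1 ± 2.93 RPKM (SD, n = 9 each; limma adjusted p = 0.689). Among the untested members, Slc6a5, the neuronal glycine transporter, had 3 and 80 reads, 33 of the 80 in R6/1 replicate 2, and Lbx1, a dorsal spinal cord factor, 0 and 27. Ptf1a, which acts upstream of Pax2 in those tissues, had 1 read in WT and 2 in R6/1. Slc6a5 and Lbx1 are named after their values were seen.

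Factors of the sine oculis (Six4 and its kin), eyes absent and dachshund families work with Pax genes in eye, ear, kidney and muscle. Of the 12 on the list 7 were tested, 1 was called higher and 2 lower, beside 24.8% and 23.5% of all genes, with a median log2 difference of -0.04. Six4, whose WT mean was below the 0.5 RPKM minimum, had 0.431 ± 0.110 and 0.681 ± 0.137 RPKM (SD, n = 9 each). Six5 fell by 0.32 on the log2 scale (limma adjusted p = 0.0207). Eya3 fell by 0.12 (limma adjusted p = 0.0194), a call lost after scaling by library read totals (limma adjusted p = 0.330). Six6, an eye and pituitary factor named after its values were seen, had 4 reads in WT and 116 in R6/1, with no overlap.

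Targets and partners of Pax2 and Pax8 in kidney and ear were taken as another list. Of 15 genes 9 were tested, 2 were called higher and 3 lower, beside 24.8% and 23.5% of all genes, with a median log2 difference of 0.10. Wnt4, a signal for the forming nephron, fell by 0.70 on the log2 scale (3.33 ± 0.969 to 1.83 ± 0.361 RPKM; SD, n = 9 each; limma adjusted p = 0.000135). Itga8, an integrin subunit of the kidney mesenchyme, fell by 0.59 and Osr1 by 0.46. Lgr5, a receptor for R-spondins whose WT mean was below the 0.5 RPKM minimum, had 0.417 ± 0.0994 and 0.770 ± 0.194 RPKM (SD, n = 9 each). The receptor Ret and its co-receptor Gfra1, through which GDNF signals, were not called (limma adjusted p = 0.124 and 0.0577). Wt1, a kidney factor named after its values were seen, had 7 reads in WT and 83 in R6/1, with no overlap.

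Genes that work with Pax6 in forebrain progenitors and in the eye formed a list of 18. Of these 14 were tested, 1 was called higher and 4 lower, beside 24.8% and 23.5% of all genes, with a median log2 difference of -0.12. Meis1, a TALE homeodomain factor, rose from 0.591 ± 0.169 to 1.5 ± 0.210 RPKM with no overlap (SD, n = 9 each; log2 difference 0.88, limma adjusted p = 3.79e-07). Sox4 fell by 0.32, Nr2e1 (a nuclear receptor of neural stem cells) by 0.25, Sox2 by 0.23 and Lhx2 by 0.15 on the log2 scale. Dcx, a marker of immature neurons, had 2.86 ± 0.507 and 3.24 ± 0.431 RPKM (limma adjusted p = 0.144).

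Genes whose proteins Pax factors recruit had a summed RNA level of 197 to 215 RPKM in WT and 214 to 226 RPKM in R6/1. All 18 genes of that list were tested. Limma called 8 higher and 5 lower, beside 24.8% and 23.5% of all genes, with a median log2 difference of 0.10. Paxip1, which encodes the Pax-binding protein PTIP, rose from 9.20 ± 0.689 to 10.0 ± 0.458 RPKM (SD, n = 9 each; log2 difference 0.12, limma adjusted p = 0.0341). Kmt2d, the histone H3 lysine methyltransferase of the PTIP complex, rose by 0.50 on the log2 scale (limma adjusted p = 1.56e-05), and Daxx, a chaperone and corepressor that binds Pax proteins, by 0.32. The Groucho corepressors Tle2 and Tle1 fell by 0.95 and 0.65 on the log2 scale with no overlap between genotypes (limma adjusted p = 8.39e-06 and 2.91e-08).

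**Figure D3:**
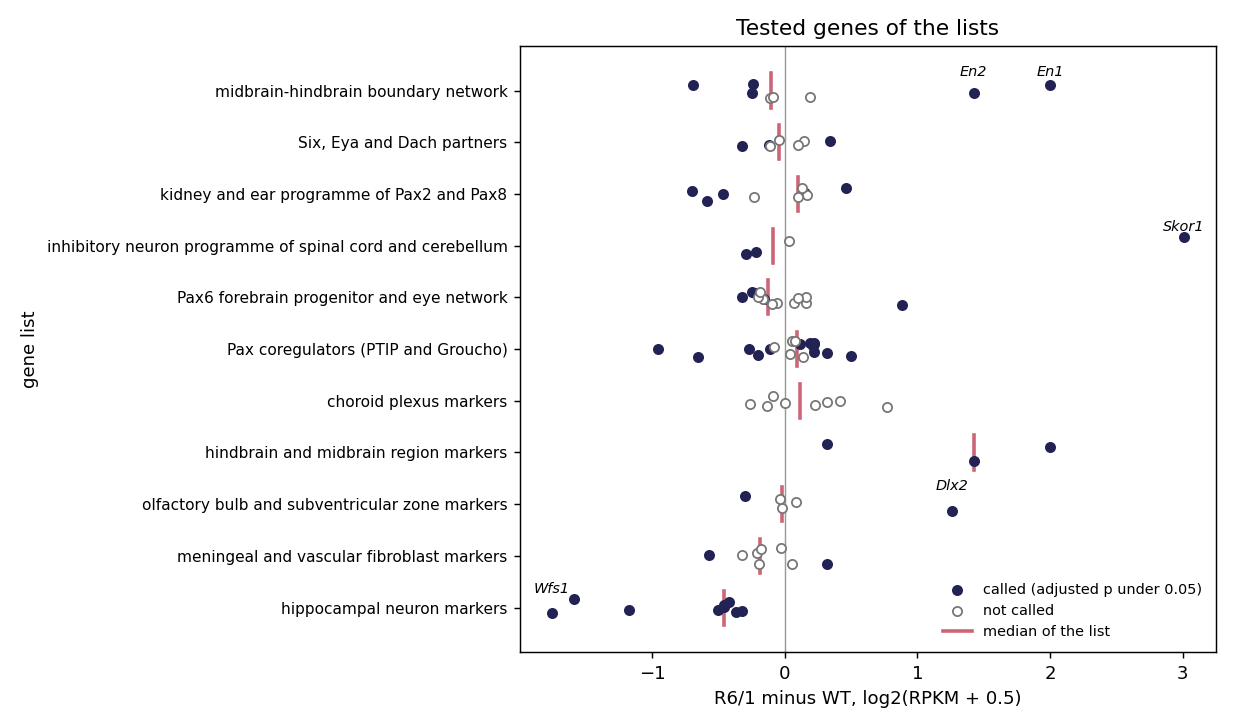
R6/1 minus WT difference on the log2(RPKM + 0.5) scale of every tested gene of 11 lists, filled where called by limma, with the median of each list as a bar. En1, En2 and Skor1 stand far to the right of the medians of the boundary and inhibitory lists (-0.10 and -0.09), and all 10 hippocampal neuron markers stand left of 0; En1, En2, Eomes and Otx2 are each on 2 lists.

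Markers of other tissues and cells were looked at in the same way. On a list of 12 hindbrain and midbrain markers 3 were tested (En1, En2 and Tph2) and all 3 were called higher, beside 24.8% of all genes. All 3 had a WT mean below 0.5 RPKM and passed the filter only through R6/1, so the count supports nothing. The list had a summed level of 0.707 to 1.85 RPKM in WT and 4.58 to 7.99 RPKM in R6/1. The Hox genes of that list, which mark the hindbrain and spinal cord, were at 0 or 1 read over all WT libraries and were detected in every R6/1 library: Hoxa2 0 and 115 reads, Hoxb2 0 and 158, Hoxb3 1 and 147, and Hoxd3 0 and 89. For 3 other markers on the same list reads were no more frequent in R6/1: Slc6a4 had 19 reads in WT and 11 in R6/1, Barhl1 25 and 15, and Tfap2b 112 and 91. Of the WT reads of Barhl1 12 came from WT replicate 6. The Hox genes, Slc6a4, Barhl1 and Tfap2b were below the filter and were not tested. The part of tissue from other brain regions in the Pax2 level was not tested.

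Of 8 B cell markers 7 were in the table and 0 passed the filter. Their summed level was 0.293 to 0.684 RPKM in WT and 0.103 to 0.369 RPKM in R6/1, with Ms4a1 at 3 reads in WT and 0 in R6/1 (a count of 0 allows up to 3). The part of B cells in the Pax5 level was not tested. Of 8 choroid plexus markers, all tested, limma called 0, beside 48.3% of all genes. Their sum varied widely within each genotype, from 25.9 to 1077 RPKM in WT and from 38.4 to 1748 RPKM in R6/1. With that spread, little can be read from the 0. Of 8 markers of meningeal and vascular fibroblasts, all tested, 1 was called higher (Foxc1, by 0.32) and 1 lower (Lum, which fell by 0.57). Of all genes 24.8% were called higher and 23.5% lower. The fibroblast sums were 39.4 to 74.7 RPKM in WT and 35.5 to 58.4 RPKM in R6/1. Of 8 olfactory bulb and subventricular zone markers 5 were tested, with 1 called higher and 1 lower, beside the same 24.8% and 23.5%. Dlx2, a homeodomain factor of forebrain interneurons, rose from 1.79 ± 0.394 to 4.98 ± 0.735 RPKM (SD, n = 9 each; log2 difference 1.27, limma adjusted p = 3.87e-09). Its neighbour Dlx1 was not called (3.88 ± 0.584 and 3.80 ± 0.349 RPKM; limma adjusted p = 0.874), and Dlx6 fell by 0.30.

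All 10 hippocampal neuron markers were called lower, beside 23.5% of all genes, with a median log2 difference of -0.46. Wfs1, a marker of CA1 pyramidal cells, fell by 1.76, Neurod6 by 1.59 and Camk2a by 1.18 on the log2 scale, and Snap25, a synaptic protein of all neurons, by 0.51. The part of these lower markers in the levels of the Pax genes was not tested.

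Genes next to the Pax genes were called about as often as genes at large. Within 500 kb of a Pax start 50 other genes were tested, and 16 were called higher and 9 lower, which is 50.0% beside the 48.3% of all genes. Around Pax2, 12 were tested, with 5 called higher and 2 lower. The nearest tested genes on either side, Fam178a at 175 kb and Hif1an at -193 kb, were not called (limma adjusted p = 0.458 and 0.313). Kazald1, which encodes a secreted protein of the IGF-binding protein kind, starts 319 kb downstream and rose from 1.77 ± 0.578 to 5.01 ± 0.642 RPKM (SD, n = 9 each; log2 difference 1.31, SE 0.121, limma adjusted p = 3.76e-08). Lzts2, at 259 kb, rose by 0.55 (limma adjusted p = 0.000305), and Scd2, a fatty acid desaturase gene on the other side (-462 kb), fell by 0.27 (limma adjusted p = 0.00137). Of the homeobox genes of this stretch, both below the filter, Tlx1 had 0 reads in WT and 15 in R6/1 and Lbx1 0 and 27. Around Pax6, 4 genes were tested and 1 called: Elp4, an Elongator subunit, rose by 0.21 (limma adjusted p = 0.00180), while Rcn1 on the other side was not called (adjusted p = 0.0966). No tested neighbour of Pax1 was called: Nkx2-2 had an adjusted p of 0.185 and Xrn2 of 0.0621 with limma.

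**Figure D4:**
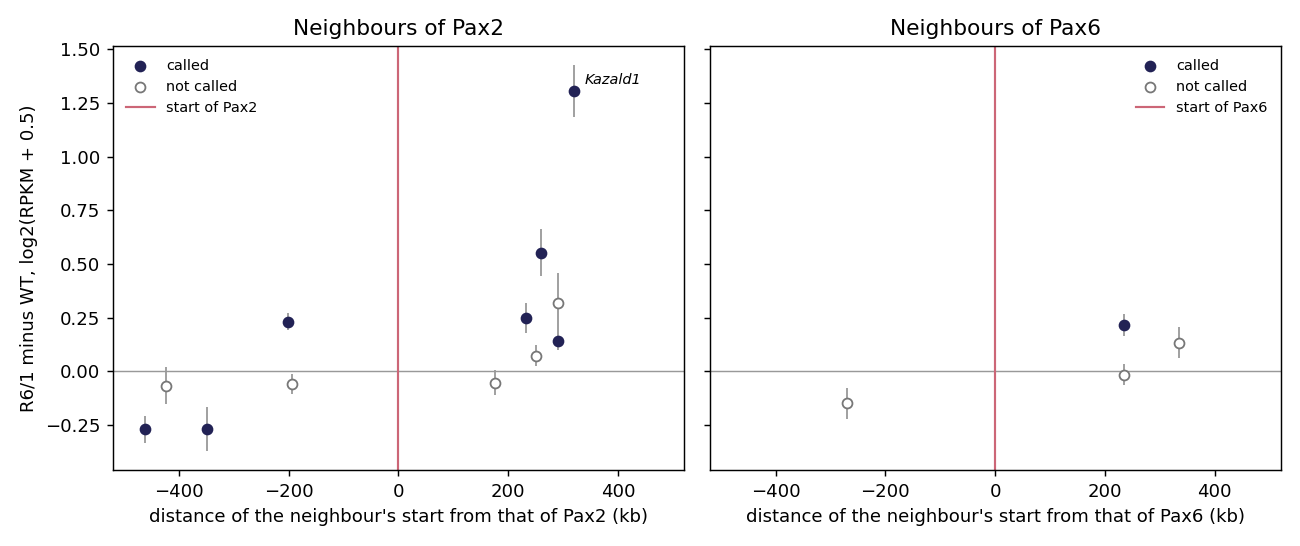
R6/1 minus WT difference on the log2(RPKM + 0.5) scale (points, with standard error) of the tested genes within 500 kb of Pax2 (left) and of Pax6 (right) against the distance between starts in kb, negative upstream; filled points were called. Kazald1, 319 kb downstream of Pax2, stands at 1.31, and the nearest gene on either side of Pax2 lies close to 0.

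Likeness across libraries was measured as Pearson's r of log2(RPKM + 0.5) over 18 libraries and is given as a description, since the genes compared share the libraries and their depth. With the mean of each genotype taken off, the 5 genes most like Pax2 were Kirrel3 (r = 0.796), Ddost (0.777), En1 (0.772), Gad1 (0.769) and Noa1 (0.754). Without that step they were Skor1 (r = 0.995), En1 (0.99), Sumo3 (0.988), Gprasp2 (0.987) and Gprasp1 (0.986), values that mostly restate the step between genotypes. Each list is the top of a search over 14446 genes. En1 is on both, but it had 2 reads in WT, so its r with the genotype means off rests mainly on the R6/1 libraries. The 5 most like Pax6, with the genotype means off, were Fgd5 (r = 0.856), Cd93 (0.813), Tmem206 (0.792), Ccdc167 (0.780) and Stat5a (0.777). Pax2 and Pax6 themselves had an r of 0.11 with the genotype means off.

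Lamin B1 is a fibrous protein of the nuclear lamina, and chromatin in contact with it forms long domains that are mostly poor in active genes. The authors' domain lists, 1 per genotype and so with no replicate spread, hold 145 domains in WT and 166 in R6/1. Of the 20512 genes matched to the annotation 4100 had their start in a WT domain and 3225 (15.7%) in an R6/1 domain. Among the Pax genes only the start of Pax9 lay in a domain, in both genotypes. Pax2 started 3.71 Mb from the nearest WT domain and 3.57 Mb from the nearest R6/1 domain. Pax1 started 1.55 and 1.59 Mb away, Pax5 4.65 Mb away in both lists and Pax8 11.8 Mb away in both.

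The domains near Pax9 and Pax6 differed between the lists. The part of the domains in the RNA levels of these members was not tested. In WT, Pax9 lay deep inside a domain of 27.5 Mb (chr12:42698001-70226000), 12.4 Mb from its nearer border. In R6/1 that stretch was listed as 2 domains (chr12:42698001-51615000 and chr12:57720001-70078000) with a gap of 6.11 Mb, and Pax9 lay in the second, 72.8 kb from its border. The domain downstream of Pax6 began 274 kb from its start in WT (chr2:105783001-112036000) and 1310 kb from it in R6/1 (chr2:106819001-112073000). Pax4, with 353 and 427 kb, was the other member within 500 kb of a WT domain.

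**Figure D5:**
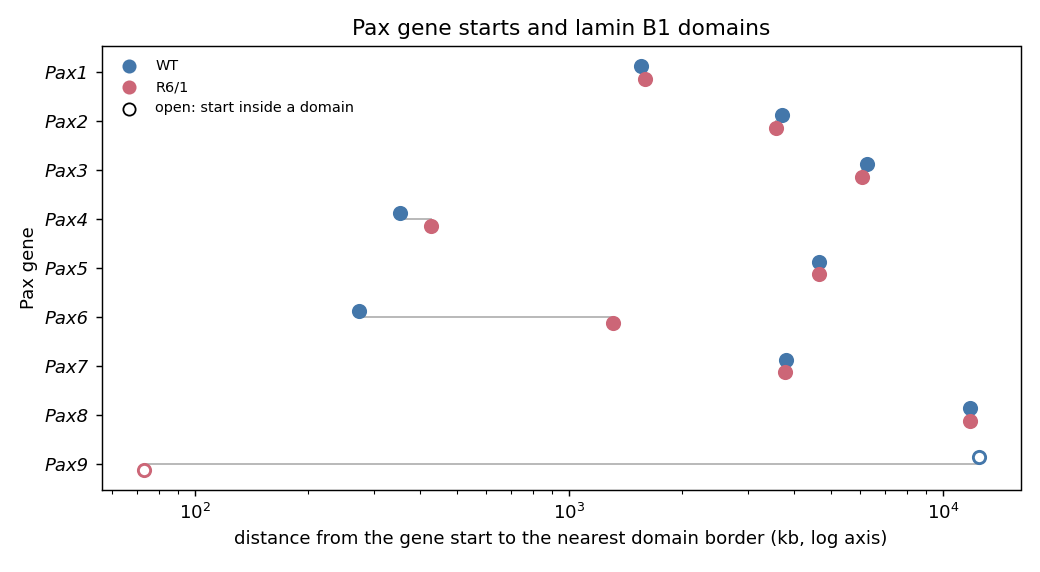
Distance in kb (log axis) from the start of each Pax gene to the nearest border of a lamin B1 domain in the WT and R6/1 lists; open symbols mark a start inside a domain. Pax9 lies inside in both, 12.4 Mb from the border in WT and 72.8 kb in R6/1, Pax6 moves from 274 to 1310 kb, and Pax2 stays between 3.57 and 3.71 Mb.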

How the data were processed

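RNA-seq of 9 WT and 9 R6/1 hippocampus samples and lists of lamin B1 domains were used. The ChIP signal itself and the ATAC-seq were not analysed here. The submitters' processing notes name TopHat and DESeq2 for the RNA samples, Bowtie for ChIP, and mm9; versions, counter and annotation are not given in the sources used here. The authors deposited RPKM per gene symbol. In the authors' table comparing R6/1 with WT, the deposited mean signal per gene is the mean of counts normalized by DESeq2 over libraries, per the file headers. The authors' log2 fold changes and their p-values were made by DESeq2 from the same counts before they were deposited, per the file headers and the processing notes; the p-values and the test score were not used. The authors' domain lists hold a score per domain, used to take the higher-scoring domains of each list; how replicates were combined is not stated.

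Reads were rebuilt by scaling each gene's RPKM to its deposited mean normalized count and dividing by the step of the library, which gave whole reads, within 0.05, for 99.87% to 99.91% of values. For 24 genes, Pax7 among them, the deposited mean does not match the values, and the scale came from the gene's own lowest values. Intervals and limits from reads cover counting error only, since molecular identifiers are not in the labels.

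Groups follow the genotype label. limma 3.58.1 in R 4.3.3 (lmFit, eBayes with trend, two-sided) was fitted on log2(RPKM + 0.5) for genes whose mean reached 0.5 RPKM, with Benjamini-Hochberg adjustment over 14446 genes and a threshold of 0.05. On simulated data for R6/1 against WT (14446 genes, 50 changed at each size) it recovered 70% of log2 changes of 0.3 and 100% of changes of 1. Far fewer genes were changed there than the 6980 called in the data, and noise was independent between genes. The rates therefore do not give the recovery in the fit reported here. A list is described by its calls and median, with no set test. Genes named from a list are called members, at most 4, with the largest log2 difference, plus members needed to say that none was called; from neighbours within 500 kb, at most 3 called genes per Pax gene and the nearest tested gene on each side of Pax2 and Pax6; by likeness, the first 5. Every other gene given by name was chosen after its values were seen, among them Spry1, Spry4, Paxip1, Dcx, Dlx1, Slc32a1, Wnt1, Gbx2 and the Hox genes. The lists cover the midbrain-hindbrain boundary, sine oculis, eyes absent and dachshund factors, the kidney and ear programme, the inhibitory neuron programme, the Pax6 network, Pax coregulators, and markers of B cells, choroid plexus, hindbrain and midbrain, olfactory bulb and subventricular zone, fibroblasts and hippocampal neurons. Members and lists were chosen with earlier results of these data known. Symbols were matched by name to GENCODE on NCBIM37 (20512 of 24508, 83.7%). Alternatives were other pseudocounts (0.1 and 1), filters (none, and 2 RPKM), quantile normalization, median centring, a block for the replicate number, leaving out each library, windows of 200 and 1000 kb and other domain rules; scaling to each library's own total of reads was added after seeing the data. Of the per-sample columns 0 were left unused.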

Additional observations from a re-analysis of the deposited data

Results flagged for a closer look

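In 6 of the 42 groups of 9 libraries examined (9 Pax genes and 12 list sums in each genotype), 1 library stood apart from the others by more than Dixon's 95% limit. For independent groups of normally spread values, chance alone would give about 2.1, at 1 in 20. Genes with few reads, such as Pax4, are not spread in that way, so nothing is read from 6 beside 2.1. Pax4 was read in WT replicate 5 only (0.0466 RPKM, 1 read; the others at 0). Pax7 stood at 0.275 RPKM in WT replicate 6, with the next WT library at 0.0184. The summed level of the hindbrain and midbrain markers, a list that holds Pax7, was 1.85 RPKM in the same WT replicate 6, with the next at 1.15. Pax5 stood at 0.384 RPKM in R6/1 replicate 4, with the next at 0.214. The summed fibroblast markers reached 74.7 RPKM in WT replicate 5, with the next at 52.2. The summed Pax coregulators reached 226 RPKM in R6/1 replicate 8, with the next at 219.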

How the results depend on the processing

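Pax2 stayed higher in R6/1 under every setting run, but its log2 difference depends on the pseudocount, as a gene near 0 in WT must: 5.13 with 0.1 and 2.84 with 1, against 3.62 with 0.5. With a pseudocount of 0.1 the differences of Pax1, Pax4 and Pax5 were 0.94, 0.12 and 1.24, and with 1 that of Pax5 was 0.21. Leaving out each library gave 3.57 to 3.65 for Pax2, 0.26 to 0.33 for Pax1 and 0.34 to 0.43 for Pax5, and -0.01 to 0.09 for Pax6. A minimum of 2 RPKM tested fewer genes, 11670, of which 6156 were called. It left 3 calls among 4 tested genes of the boundary list, all lower. On the list of sine oculis, eyes absent and dachshund factors 1 of 2 was called (lower), and on the kidney and ear list 3 of 5 (1 higher, 2 lower). The olfactory list had 1 of 3 (higher), the fibroblast list 1 of 6 (lower), and the hindbrain and midbrain list 0, with 0 genes tested. With no filter 7323 of 20791 genes were called. The calls were then 6 of 13 on the inhibitory list (4 higher, 2 lower), 7 of 12 on the hindbrain and midbrain list (all higher) and 2 of 7 on the B cell list (both lower). The genes added in this way had a mean below 0.5 RPKM, and the lists were chosen with earlier results known, so nothing is read from these counts. The count over all genes ranged from 6661 to 7176 when 1 library was left out. Of 64 other genes given by the rule, 57 kept their call in every setting run and 0 changed sign while called. Neighbours were called at 50.0% in windows of 200, 500 and 1000 kb. The start of Pax9 alone lay in a domain also with any base of the gene or the higher-scoring domains.

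Libraries of both genotypes carry the same replicate numbers, but with the number as a block 7133 genes were called against 6980 without it, and the deviations of same-numbered libraries correlated between -0.05 and 0.24 (3 of 9 over 0.1; 2 of 9 WT libraries matched their own number best), so the numbers were not taken to pair animals. Members with few reads (all but Pax2, Pax6 and Pax9) allow only large differences to be seen.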

Other observations

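The 6.11 Mb between the 2 R6/1 domains on either side of the border next to Pax9 (chr12:51615001-57720000), which the WT list counts as domain, holds 36 genes of the table. Of these 27 were tested, and limma called 7 higher and 3 lower in R6/1, beside 24.8% and 23.5% of all genes tested. Mbip, the tested gene within 500 kb of Pax9, was not called (7.94 ± 1.5 and 7.66 ± 0.879 RPKM; SD, n = 9 each; limma adjusted p = 0.766).

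Among the neighbours of the members with few reads, Il1f9, an interleukin-1 family gene 289 kb from Pax8, fell by 0.82 on the log2 scale (limma adjusted p = 4.06e-06), and Cacna1b, a calcium channel subunit on the other side, rose by 0.33 (limma adjusted p = 5.81e-06). Igsf21, an immunoglobulin superfamily gene 413 kb from Pax7, fell by 0.39 (limma adjusted p = 0.00163).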
